A study of Mus musculus with 14 samples.

Results

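The 99 genes described here were expressed in KMF mouse ovarian tumorspheres and were lower in all 4 lines that descend from 1 FAK-knockout clone of those cells. The genes were chosen from the measured values: a gene counted if it was annotated as protein-coding, if its mean in KMF cells was above 1 FPKM (a fragment count scaled to transcript length and to the mapped fragments of the library), and if that mean was at least 2 times the mean of each clone-derived line, with 0.1 FPKM added to all means. Of 22026 protein-coding genes, 10784 had a KMF mean above 1 FPKM, and 99 of these met the rule. The mirrored rule, for genes at least 2 times higher in all 4 clone-derived lines, found 110 genes. Since the difference between KMF cells and the other lines chose the genes, it is given as a description with no test.

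KMF cells are an aggressive derivative of the ID8 ovarian epithelial line, recovered from the ascites of C57Bl6 mice. FAK KO cells are 1 clone (KT13), made by CRISPR/Cas9 targeting of Ptk2, the gene for focal adhesion kinase (FAK). The other lines were made from that clone, and so carry the same edited Ptk2: FAK-WT cells re-express GFP-tagged FAK, FAK-R454 cells express a GFP-tagged FAK without kinase activity, and β-catenin ΔGSK cells express a β-catenin that lacks the sites phosphorylated by GSK3β, and were still without FAK. FAK and FAK-R454 were delivered by lentivirus under a CMV promoter and β-catenin ΔGSK by retrovirus with GFP as a marker. All cells were grown without anchorage in serum-free medium for 5 days as tumorspheres before poly(A) RNA was sequenced. There were 3 RNA samples of each line except FAK-R454, which had 2. With 1 knockout clone, what FAK loss changed and what that clone carried in any case cannot be told apart in the KMF comparison, and a lower level of a transcript in bulk RNA cannot be told apart from fewer cells that make it.

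FAK is a cytoplasmic tyrosine kinase that couples integrins, the receptors for extracellular matrix, to signalling inside the cell, and it also has scaffold functions that do not need its kinase activity. β-Catenin links cadherins to the cytoskeleton and, when not marked for degradation by GSK3β, enters the nucleus and acts with TCF/LEF factors on Wnt target genes. Ovarian tumor cells in ascites survive as spheres without attachment, where they make part of their own matrix. Re-expression of FAK and expression of active β-catenin in the knockout clone ask which of the transcripts low in the clone return.

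The samples held 25390558 to 35289859 fragments, recovered from the FPKM values. Samples of 1 line correlated at 0.988 or more (Pearson's r, log2 FPKM + 0.1), KMF samples at 0.961 or less with the other lines, and β-catenin ΔGSK samples at 0.925 or less. Ptk2 was at 24.8, 24.2 and 23.9 FPKM in KMF cells, 20.5, 17.6 and 18.9 in FAK KO. FAK-WT cells held 42.3, 42.5 and 45.4 FPKM, FAK-R454 cells 59.2 and 65.5 FPKM and β-catenin ΔGSK cells 15.4, 15.9 and 15.1 FPKM. These whole-gene values do not separate the edited transcript from the GFP-FAK transcript, so they do not show the edit. Of 30 ovarian surface and mesothelial markers, 16 to 19 were above 1 FPKM in each line, among them Krt8, Krt18, Krt19, Msln, Wt1, Gata4 and Gata6, while Calb2, Krt5, Tcf21 and Lhx2 had means of 0.0216 FPKM or less. Cdh1 had a mean of 0.760 FPKM in KMF cells and 0.0229 to 0.0986 FPKM in the clone-derived lines, and the line means of Epcam, at 0.28 to 0.54 FPKM, and Krt7, at 0.02 to 0.33 FPKM, were low. Of 20 leukocyte markers measured, 2 were above 1 FPKM (Cd14 and Cd68), and Cd3e, C1qa and Tyrobp were at 0 in all samples. The summed level of the leukocyte list was 8.86 to 9.37 FPKM in KMF cells and 4.72 to 18.1 FPKM in the clone-derived samples.

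The members were mostly genes of low abundance. Their median KMF mean was 4.22 FPKM, against 13.1 FPKM for all protein-coding genes above 1 FPKM in KMF cells, and 51 of them were under 5 FPKM. The ratio of KMF to the highest clone-derived line, on FPKM + 0.1, had a median of 2.80 and ran from 2.005 to 30.9. It reached 3 for 44 members, 5 for 16 and 10 for 5. In 43 members all 4 clone-derived means were below 1 FPKM. In 98 members every KMF sample lay above all 11 clone-derived samples, as did 12.1% of all expressed protein-coding genes, a separation that follows from the rule. The exception was Nxph4, at 20.1 FPKM in FAK-WT replicate 3 and 19.95 in KMF replicate 2.

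The 2 highest ratios were those of Rbfox3 and Zic2. Rbfox3, which encodes the neuronal splicing factor NeuN, was at 5.88, 5.69 and 4.84 FPKM in KMF cells. It was at 0.152 FPKM or less in each of the other 11 samples, where FAK-WT replicate 3 was the highest. In fragments, the 3 KMF samples held 1576 and the 11 others together 34, a depth-adjusted ratio of 158. Zic2, a zinc-finger transcription factor of neural development, was at 4.43, 4.12 and 3.31 FPKM in KMF cells. All FAK KO and β-catenin ΔGSK samples had 0 fragments of Zic2, and the FAK-WT samples 0.0305 to 0.104 FPKM. The ratio of KMF samples to the 11 others was 200.2 from 880 and 15 fragments.

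Gm9312, a predicted gene, had 50 fragments over the 3 KMF samples and 0 over the 11 clone-derived samples, so that it was at least 56.9-fold higher in KMF cells, with 3 fragments over the group as the floor. Predicted genes of this kind can share reads with near-identical copies, so their levels are uncertain. Foxf1, a forkhead factor of mesenchyme around the gut and lung, was at 3.80, 4.03 and 2.44 FPKM in KMF cells and at 0.606 FPKM or less elsewhere. Ebf4, of the early B-cell factor family of transcription factors, was at 13.02, 11.4 and 8.63 FPKM in KMF cells, with FAK-WT replicate 3 the next sample at 2.57 FPKM. The groups of KMF and clone-derived samples did not overlap for any of these genes.

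The rest of the 15 highest ratios included Col5a2 and Ly6a, described with the matrix and surface members. Limch1, an activator of non-muscle myosin, was at 2.18 to 2.78 FPKM in KMF cells and 0.0734 FPKM or less elsewhere. Rbp7, a retinol-binding protein, was at 5.96 to 7.95 FPKM and 0.650 FPKM or less elsewhere. Vnn1, a membrane-anchored pantetheinase, was at 4.71 to 5.23 FPKM, and its next highest sample was FAK KO replicate 1 at 0.550 FPKM. Thbd (thrombomodulin, the endothelial cofactor of thrombin) was at 13.3 to 14.9 FPKM and 2.24 FPKM or less elsewhere. Saa3, an acute-phase serum amyloid A, varied among KMF samples at 9.92, 16.1 and 9.98 FPKM, and FAK-WT replicate 1 had 2.27 FPKM. Npy, the peptide neuropeptide Y, was at 1.82, 1.90 and 2.55 FPKM, and stood at 0.724 FPKM in FAK-WT replicate 2 with no other clone-derived sample above 0.125. Hc (complement component 5) and Lrrc4 (a synaptic adhesion protein) were low even in KMF cells, at 1.01 ± 0.0901 and 1.20 ± 0.1505 FPKM (SD, n = 3).

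**Figure D1:**
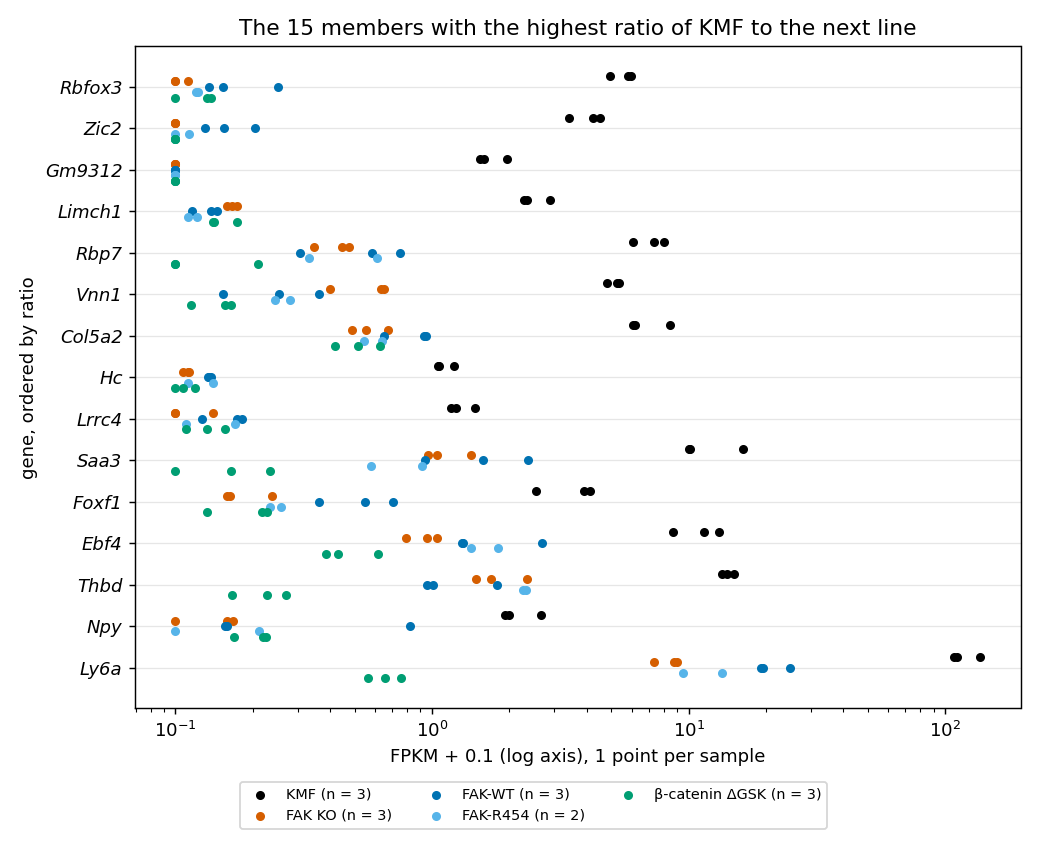
FPKM + 0.1 on a log axis for the 15 members with the highest ratio, 1 point per sample, coloured by line. The KMF points, in black, lie to the right of all others in each gene, and the green β-catenin ΔGSK points of Ly6a, Thbd and Vnn1 lie left of the FAK KO points.

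The 10 most abundant members had ratios from 2.005 for Kctd14 to 5.62 for Ly6a. Kctd14, of the potassium channel tetramerization domain family, was at 569, 532 and 682 FPKM in KMF cells and at 183 to 312 FPKM in the clone-derived samples. Bgn, the matrix proteoglycan biglycan, was at 525, 509 and 557 FPKM. Ndufa4l2, a mitochondrial protein known as a hypoxia target, was at 420, 341 and 486 FPKM, and the glycosylphosphatidylinositol-anchored surface proteins Ly6e and Ly6a were at 227 ± 12.7 and 119 ± 15.8 FPKM (SD, n = 3). Another 5 members had KMF means from 40.0 to 86.1 FPKM: Atf5 (a stress-response transcription factor), Lrrc26 (an auxiliary subunit of BK potassium channels), Cryab (the small heat shock protein αB-crystallin), Pip5k1c (a kinase that makes phosphatidylinositol 4,5-bisphosphate, with a form at focal adhesions) and Prr15. Pip5k1c was at 54.98, 55.2 and 48.4 FPKM in KMF cells and within 19.98 to 26.0 FPKM in all 11 clone-derived samples.

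The members nearest the threshold were Cbfa2t3 (a transcriptional co-repressor) at a ratio of 2.03, Dok2 (an adaptor of tyrosine kinase signalling) at 2.01 and Kctd14 at 2.01. Just outside were Sgcb (β-sarcoglycan) at 1.99, Rbm20 (a muscle splicing factor) at 1.98 and Ccdc88c (a Dishevelled-binding protein) at 1.97. Sgcb was at 9.18 FPKM in KMF cells and 1.96 FPKM in FAK KO, and missed the rule only through its FAK-WT mean of 4.56 FPKM. On the level threshold, the KMF mean was 1.00 FPKM for C130050O18Rik, just inside, and 0.995 FPKM for Nim1k, just outside.

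The 4 clone-derived lines did not hold the members at the same level. The median log2 difference of KMF over the line was 2.13 for FAK KO, 1.73 for FAK-WT, 2.03 for FAK-R454 and 2.64 for β-catenin ΔGSK cells, while over all expressed protein-coding genes the same medians lay between -0.03 and 0.06. FAK-WT was the highest clone-derived line for 49 members, FAK KO for 22, β-catenin ΔGSK for 15 and FAK-R454 for 13. β-Catenin ΔGSK was the lowest for 58 members, FAK KO for 25, FAK-R454 for 13 and FAK-WT for 3. Ties at 0 were counted for FAK KO: Gm9312 as both highest and lowest, and Zic2 as lowest. The same counts were not made over all expressed genes, and β-catenin ΔGSK was also the line least correlated with the others. Nothing particular to the members is therefore read from these counts. Scaled so that FAK KO is 0% and KMF 100% on the log2 scale, the median member stood at 16.4% for FAK-WT, 2.01% for FAK-R454 and -23.4% for β-catenin ΔGSK cells. In FAK-WT cells 7 members passed 50% (Nxph4, Cxcl5, Lpar1, Gm6484, Ndufa4l2, Lamb3 and Ism1), named because so few did and after their values were seen. For Nxph4, Ndufa4l2, Lamb3 and Ism1, FAK-WT replicate 3 was the highest FAK-WT sample, so the count leans in part on that sample. Ism1, for example, was at 1.04, 1.40 and 2.75 FPKM in the FAK-WT samples. In β-catenin ΔGSK cells 1 member, Bnip3, passed 50%, and in FAK-R454 cells the highest was 47.2%. The rule caps each of these lines, so genes that returned further are not members by construction.

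**Figure D2:**
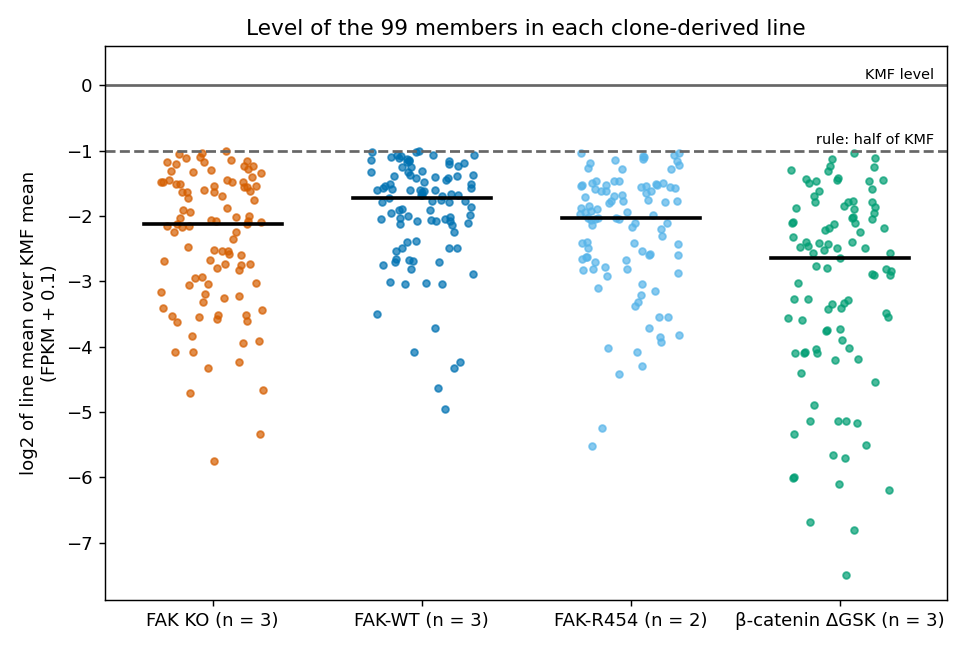
Each point is 1 of the 99 members, plotted as log2 of the line mean over the KMF mean (FPKM + 0.1), with the median as a bar. The dashed line marks the cap set by the rule, and the β-catenin ΔGSK cells have the lowest median and the longest lower tail.

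The members are part of a larger set. In FAK KO cells 400 expressed protein-coding genes (3.71%) were at least 2 times lower than in KMF cells, and the 99 members made up 24.8% of them. FAK-WT cells held 248 of the 400 above that cap, β-catenin ΔGSK cells 187 and FAK-R454 cells 184. All 3 lines did so for 104 of the 400.

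Comparisons among the clone-derived lines used no KMF sample, but the rule had used the mean of each line as a cap, so the members' values in them are not free of the selection, and the shares called are set beside those of all genes as a description. Each was fitted with limma over 12256 genes on log2(FPKM + 0.1) and a gene was called at a Benjamini-Hochberg adjusted p under 0.05, a log2 fold change of at least 1 and a mean above 1 FPKM in the higher line (a mean under that level was found for 53 members with FAK KO, 44 with FAK-WT, 52 with FAK-R454 and 66 with β-catenin ΔGSK). FAK KO samples are shared by 3 of the 4 comparisons, whose values therefore stand side by side and are not independent. The cap of the rule limits how far a member could rise in any line, and places no such limit on a fall.

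Over FAK KO, FAK-WT cells had 12 members called higher (12.1% of the 99), where 2.80% of all genes tested were called, and 0 called lower, where 1.66% were. Without adjustment, 46 members were higher and 11 lower at p under 0.05 in limma, and limma-voom on fragments called 14 higher and 0 lower. Only 55 of the 99 had a mean above 1 FPKM in either line. The unadjusted counts of members, here and below, include genes that entered the fit only through another line, and nothing is read from them. The median log2 fold change of the members was 0.40 (0.17 with a pseudocount of 1), against -0.07 over all genes tested. FAK-R454 cells had 5 members called higher over FAK KO (1.84% of all genes) and 0 called lower (0.775% of all genes), with 30 and 13 at an unadjusted p under 0.05 in limma and 5 and 0 called by limma-voom. In that comparison 52 members had a mean above 1 FPKM in either line. The members' median was 0.07 (0.0224 with a pseudocount of 1), against -0.03 over all genes. β-Catenin ΔGSK cells had 20 members called lower than in FAK KO (20.2%, where 6.80% of all genes were called) and 6 called higher (4.97% of all genes). At an unadjusted p under 0.05 in limma, 50 were lower and 15 higher. By limma-voom the call of Fam43a was lost and 1 of Fhl2 was gained. Here 48 of the 99 had a mean above 1 FPKM in either line, and the rest could not be called. The members' median was -0.53, against -0.09 over all genes. It was -0.151 with a pseudocount of 1 and -0.866 with the filter at a mean FPKM above 5, which kept only 48 members. With no fold threshold the members called higher and lower were 27 and 8 in FAK-WT (14.8% and 23.7% of all genes), 11 and 4 in FAK-R454 (8.78% and 8.62%), 10 and 28 in β-catenin ΔGSK cells (23% and 33.1%), and 9 and 0 in FAK-WT over FAK-R454 (3.15% and 4.12%, limma). The other 301 genes at least 2 times lower in FAK KO than in KMF cells, which are not members because at least 1 line held them above the cap, were called higher more often: 34.9% with FAK-WT, 19.9% with FAK-R454 and 32.9% with β-catenin ΔGSK over FAK KO. In β-catenin ΔGSK cells 10.6% of them were called lower. The rule itself separates the members from these genes by their levels in those lines. In total 32 members were called in at least 1 comparison. The 43 members with all 4 clone-derived means under 1 FPKM could not be called in any of them, so the lack of a call for those is not a result.

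**Figure D3:**
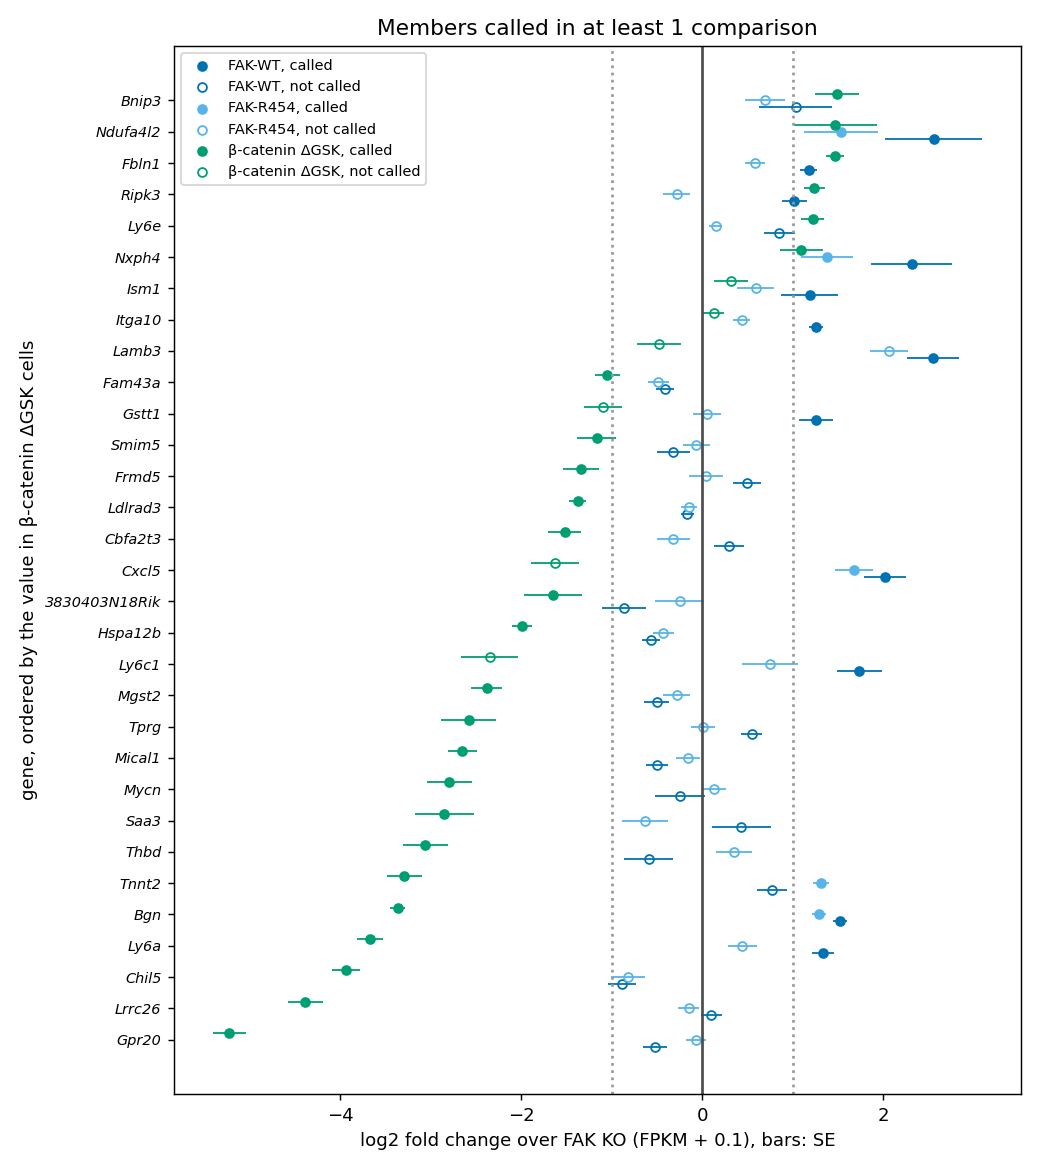
Log2 fold change over FAK KO with its standard error for members called in at least 1 comparison, for β-catenin ΔGSK, FAK-WT and FAK-R454 cells (n = 3, 3 and 2, against 3 FAK KO samples). Filled points passed the call, and the genes are ordered by their value in β-catenin ΔGSK cells, from 1.49 for Bnip3 to -5.22 for Gpr20.

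Structural proteins of the extracellular matrix accounted for 5 members. Of these, Bgn, Lamb3 and Fbln1 were called higher with FAK-WT over FAK KO, Col5a2 and Fbn1 were too low to be called, and in β-catenin ΔGSK cells Fbln1 was called higher and Bgn lower. Bgn (chrX:73483602-73495933, plus strand, mm10) was at 53.2, 44.8 and 49.1 FPKM in FAK KO. FAK-WT cells held 145, 145 and 132 FPKM, FAK-R454 cells 123 and 117 FPKM and β-catenin ΔGSK cells 4.73, 4.83 and 4.45 FPKM. No line overlapped FAK KO. Its log2 fold change over FAK KO was 1.52 ± 0.08 with FAK-WT (SE, limma adjusted p = 2.77e-05), 1.29 ± 0.08 with FAK-R454 (adjusted p = 0.000352) and -3.36 ± 0.08 with β-catenin ΔGSK (adjusted p = 6.30e-08). Bgn rose in both FAK-expressing lines, stayed 3.77 times below KMF at its highest, and fell in β-catenin ΔGSK cells to 0.0973 of its FAK KO level.

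Lamb3, the β3 chain of the basement membrane protein laminin-332, was at 5.67, 4.84 and 7.05 FPKM in KMF cells and at 0.170, 0.122 and 0.113 FPKM in FAK KO. It rose in FAK-WT cells to 0.844, 1.22 and 1.95 FPKM (log2 fold change 2.55 ± 0.29 SE, limma adjusted p = 0.000748). In FAK-R454 cells it was at 0.801 and 0.957 FPKM, 2.06 ± 0.21 on the log2 scale above FAK KO with an adjusted p of 0.00144, but was not called because its mean was below 1 FPKM. The difference between FAK-WT and FAK-R454 cells, 0.49 ± 0.33, did not pass the test (limma adjusted p = 0.389).

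Fbln1, the basement membrane glycoprotein fibulin-1, was higher than in FAK KO in both the FAK-WT and the β-catenin ΔGSK cells. It was at 1.85, 1.99 and 2.06 FPKM in FAK KO. FAK-WT cells held 4.59, 4.40 and 4.71 FPKM, FAK-R454 cells 3.01 and 2.97 FPKM and β-catenin ΔGSK cells 5.23, 5.96 and 5.70 FPKM. The rise was 1.17 ± 0.09 in FAK-WT (SE, limma adjusted p = 0.000211) and 1.47 ± 0.10 with β-catenin ΔGSK (adjusted p = 1.13e-05), both well short of the KMF values of 20.6, 20.2 and 18.2 FPKM. Centring each chromosome on its median, an alternative chosen after seeing the data, ended the FAK-WT call (0.87 on the log2 scale). Ly6a and Ly6c1, described below, also lie on chromosome 15, so centring lowers their FAK-WT rises by the same amount. Both stayed called.

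Col5a2, the α2 chain of type V collagen, had clone-derived means under 1 FPKM and so could not be called. It was at 6.10, 5.97 and 8.39 FPKM in KMF cells and between 0.318 and 0.843 FPKM in all 11 clone-derived samples. Fbn1 (fibrillin-1, of elastic microfibrils) was at 1.86, 1.87 and 1.89 FPKM in KMF cells and 0.336 to 0.421 in FAK KO. β-Catenin ΔGSK cells held 0.0132 to 0.0170 FPKM of Fbn1, which could not be called because all clone-derived means were below 1 FPKM. No test is read for it, since only its KMF mean put Fbn1 in the fit.

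These 5 belong to a list of 68 matrix genes, of which 45 were tested. Over FAK KO, 17 of the 45 were called higher in FAK-WT (2.80% of all genes) and 17 in FAK-R454 cells (1.84% of all genes), with 0 called lower in each by limma or by limma-voom and 2 and 4 lower at an unadjusted p under 0.05. The list's median log2 fold change was 0.75 in FAK-WT and 0.66 in FAK-R454 cells. In β-catenin ΔGSK cells 14 were called lower and 4 higher (6.80% and 4.97% of all genes), with a median of -0.48. Of a list of 14 fibroblast markers, which shares collagens with matrix genes, the summed level was 103 to 143 FPKM in FAK KO, 160 to 188 for FAK-WT, 152 to 163 for FAK-R454 and 32.3 to 47.0 for β-catenin ΔGSK cells, against 89.7 to 109 in KMF cells. Of the 14, 6 were tested. Col1a1, Col3a1 and Pdgfra were called higher in FAK-WT and in FAK-R454 cells over FAK KO, and Col1a1, Col3a1, Dcn, Pdgfra and Pi16 lower in β-catenin ΔGSK cells. Pdgfra, a receptor for platelet-derived growth factor, had a mean of 9.06 FPKM with KMF, 3.03 with FAK KO, 10.3 with FAK-WT, 8.87 with FAK-R454 and 0.815 with β-catenin ΔGSK. Col1a2, Lum, Pdgfrb, Thy1, Fap and Postn were at a mean of 0.0427 FPKM or less in every line. The part of this list in the results for the matrix members was not tested.

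The promoters of 6 called members are shown as examples, of which Lrrc26 and Tprg were picked because they hold a motif of the TCF/LEF partners of β-catenin. Each is the RefSeq window (GRCm38.p6) from 250 bases before to 50 bases after the gene's start, 5′ to 3′ on the strand of the gene, and capitals mark the TCF/LEF core ATCAAAG on either strand. Bgn (chrX:73483351-73483650, plus strand), Lamb3 (chr1:193301744-193302043, plus strand), Fbln1 (chr15:85205699-85205998, plus strand) and Ripk3 (chr14:55788808-55789107, minus strand) rose in FAK-WT cells, and in β-catenin ΔGSK cells Bgn fell and Fbln1 and Ripk3 rose. Lrrc26 (chr2:25289661-25289960, plus strand) and Tprg (chr16:25286567-25286866, plus strand) fell in β-catenin ΔGSK cells.
Bgn: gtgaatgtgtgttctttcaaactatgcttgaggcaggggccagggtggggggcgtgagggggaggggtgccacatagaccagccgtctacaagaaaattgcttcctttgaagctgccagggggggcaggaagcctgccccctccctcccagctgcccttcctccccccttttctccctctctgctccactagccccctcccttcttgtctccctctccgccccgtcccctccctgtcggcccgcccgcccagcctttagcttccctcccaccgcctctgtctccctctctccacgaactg
Lamb3: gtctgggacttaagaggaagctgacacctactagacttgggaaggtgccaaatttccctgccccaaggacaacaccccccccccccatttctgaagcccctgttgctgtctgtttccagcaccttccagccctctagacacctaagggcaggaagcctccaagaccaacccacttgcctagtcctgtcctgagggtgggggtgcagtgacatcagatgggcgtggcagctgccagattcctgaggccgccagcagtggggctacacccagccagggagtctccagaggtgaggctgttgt
Fbln1: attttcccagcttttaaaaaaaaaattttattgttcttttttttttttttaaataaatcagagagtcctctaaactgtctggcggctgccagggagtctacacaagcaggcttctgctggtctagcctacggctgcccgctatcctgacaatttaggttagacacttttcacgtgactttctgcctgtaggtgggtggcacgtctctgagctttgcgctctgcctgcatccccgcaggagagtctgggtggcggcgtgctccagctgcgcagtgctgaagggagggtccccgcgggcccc
Ripk3: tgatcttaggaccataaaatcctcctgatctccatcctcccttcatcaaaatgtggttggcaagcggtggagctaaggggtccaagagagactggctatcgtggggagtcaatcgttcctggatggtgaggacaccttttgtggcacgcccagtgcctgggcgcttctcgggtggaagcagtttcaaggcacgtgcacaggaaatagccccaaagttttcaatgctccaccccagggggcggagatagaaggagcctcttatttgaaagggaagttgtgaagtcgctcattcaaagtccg
Lrrc26: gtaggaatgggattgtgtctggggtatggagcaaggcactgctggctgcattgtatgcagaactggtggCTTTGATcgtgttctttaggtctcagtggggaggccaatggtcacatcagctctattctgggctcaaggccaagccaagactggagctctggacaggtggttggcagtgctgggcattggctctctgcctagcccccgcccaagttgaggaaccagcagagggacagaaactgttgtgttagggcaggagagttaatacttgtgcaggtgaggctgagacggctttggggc
Tprg: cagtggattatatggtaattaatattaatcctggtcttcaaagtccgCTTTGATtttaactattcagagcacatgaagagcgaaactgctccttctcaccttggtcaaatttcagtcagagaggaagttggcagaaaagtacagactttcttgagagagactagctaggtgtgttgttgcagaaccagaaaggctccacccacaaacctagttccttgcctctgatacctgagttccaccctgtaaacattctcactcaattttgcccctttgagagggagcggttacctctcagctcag
The core was found at 1 position in Lrrc26 and 1 in Tprg, with its first base at -181 and -203 from the start, and its letters were not in these windows of the other 4 genes. Searched on both strands, it was in 4 of the 69 members with a promoter in the table and in 3.27% of the 16780 promoters of protein-coding genes in the table. Only 69 of the 99 members had a promoter there, under 80%, so the comparison of these shares is void and nothing is read from it.

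Surface proteins made up 19 of the members, with a median log2 fold change over FAK KO of -1.22 in β-catenin ΔGSK cells, 0.10 in FAK-WT and 0.12 in FAK-R454. Of the 19, 6 were called lower and 1 higher in β-catenin ΔGSK cells, where 6.80% and 4.97% of all genes were called, and 3 higher and 0 lower in FAK-WT cells, where 2.80% and 1.66% were. This grouping by role was made after the members were known. Ly6a, the stem and progenitor cell antigen Sca-1, was at 108, 111 and 137 FPKM in KMF cells. It stood at 8.87, 8.63 and 7.22 in FAK KO. FAK-WT cells held 18.99, 19.4 and 24.6 FPKM, FAK-R454 cells 13.3 and 9.39 FPKM and β-catenin ΔGSK cells 0.553, 0.660 and 0.463 FPKM. Ly6a rose in FAK-WT cells (1.34 ± 0.12 SE on the log2 scale, limma adjusted p = 0.000332) and fell in β-catenin ΔGSK cells (-3.67 ± 0.15, adjusted p = 7.13e-07).

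Ly6c1, a monocyte and endothelial antigen of the same family, was at 0.512, 1.05 and 1.06 FPKM in FAK KO and 3.14, 3.22 and 2.68 in FAK-WT, a rise of 1.73 ± 0.25 (limma adjusted p = 0.00203). Ly6e, which restricts viral entry, rose in β-catenin ΔGSK cells: it was at 27.9, 27.9 and 27.8 FPKM in FAK KO and 54.0, 64.1 and 79.3 in β-catenin ΔGSK cells (1.22 ± 0.12, limma adjusted p = 9.80e-05). FAK-WT cells held 58.4, 60.1 and 36.5 FPKM of Ly6e. That was 0.85 ± 0.17 above FAK KO on the log2 scale, under the fold threshold and not called (limma adjusted p = 0.00802). The Ly6 genes are similar in sequence, and reads may be split between copies. Itga10, the collagen-binding integrin α10 subunit, was at 31.4, 28.7 and 38.8 FPKM in KMF cells, 3.80, 3.80 and 4.20 in FAK KO and 9.82, 9.34 and 9.499 in FAK-WT. It rose by 1.26 ± 0.08 in FAK-WT cells (limma adjusted p = 7.42e-05) and stood at 5.18 and 5.52 FPKM in FAK-R454 cells.

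The steepest fall in β-catenin ΔGSK cells was that of Gpr20. Gpr20, an orphan G protein-coupled receptor, was at 12.1, 12.9 and 9.40 FPKM in KMF cells, 3.70, 4.26 and 4.18 in FAK KO, 2.74, 3.27 and 2.42 in FAK-WT and 4.01 and 3.68 in FAK-R454. In β-catenin ΔGSK cells it was at 0, 0.0367 and 0 FPKM. The 3 FAK KO samples held 728 fragments of Gpr20 and the 3 β-catenin ΔGSK samples 2, a depth-adjusted ratio of 360 (95% exact interval 99.2 to 2976, counting error only). The limma estimate, -5.22 ± 0.18, is compressed by the added 0.1 FPKM (adjusted p = 3.84e-07).

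Lrrc26, whose promoter is shown above, was at 70.7, 76.9 and 72.3 FPKM in KMF cells, 25.1, 32.2 and 31.6 in FAK KO, 28.4, 31.6 and 35.2 in FAK-WT and 26.0 and 27.1 in FAK-R454. It was at 1.21, 1.82 and 1.03 FPKM in β-catenin ΔGSK cells, a fall of -4.38 ± 0.20 on the log2 scale (SE, limma adjusted p = 1.18e-06). The FAK-WT and FAK KO samples overlapped. Chil5, a secreted chitinase-like protein, fell from 5.27, 6.74 and 5.81 FPKM in FAK KO to 0.268, 0.262 and 0.355 in β-catenin ΔGSK cells (-3.94 ± 0.15, limma adjusted p = 5.73e-07). It is close in sequence to other chitinase-like genes, so its level is uncertain. Tnnt2, cardiac troponin T, fell from 3.81, 3.62 and 3.84 FPKM to 0.360, 0.355 and 0.194 (-3.29 ± 0.19, limma adjusted p = 4.96e-06). It rose in FAK-R454 cells, to 9.06 and 9.89 FPKM (1.31 ± 0.09, limma adjusted p = 0.000383). FAK-WT cells held 5.42, 5.83 and 8.63 FPKM of Tnnt2, 0.77 ± 0.17 above FAK KO and under the fold threshold (limma adjusted p = 0.0101).

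The remaining 14 members called lower in β-catenin ΔGSK cells included Thbd, Saa3, Mycn, Mical1, Tprg, Mgst2, Hspa12b, 3830403N18Rik, Cbfa2t3, Ldlrad3, Frmd5, Smim5 and Fam43a. Their log2 fold changes ran from -3.06 to -1.05. The call of Saa3 was lost without FAK KO replicate 1, though its log2 fold change was still -2.68. The other FAK KO samples, at 0.867 and 0.942 FPKM, lay under the level threshold. That of Smim5 was lost without β-catenin ΔGSK replicate 1, at -0.932. The call of Fam43a was lost without FAK KO replicate 2 (-0.995), FAK KO replicate 3 (-0.998) or β-catenin ΔGSK replicate 3 (-0.932). Mycn, the N-Myc transcription factor, was at 3.54, 2.99 and 2.76 FPKM in KMF cells, 1.18, 1.12 and 1.16 in FAK KO and 0.0264, 0.133 and 0.102 in β-catenin ΔGSK cells. Mical1, an enzyme that oxidizes and disassembles actin filaments, was at 20.3, 20.9 and 20.02 FPKM in KMF cells, 4.07, 4.91 and 3.71 in FAK KO and 0.522, 0.713 and 0.541 in β-catenin ΔGSK cells. Tprg was at 3.64, 2.85 and 2.95 FPKM in FAK KO and 0.475, 0.731 and 0.229 in β-catenin ΔGSK cells. Mycn, Mical1 and Tprg lie outside the naming rule and were picked after their values were seen.

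**Figure D4:**
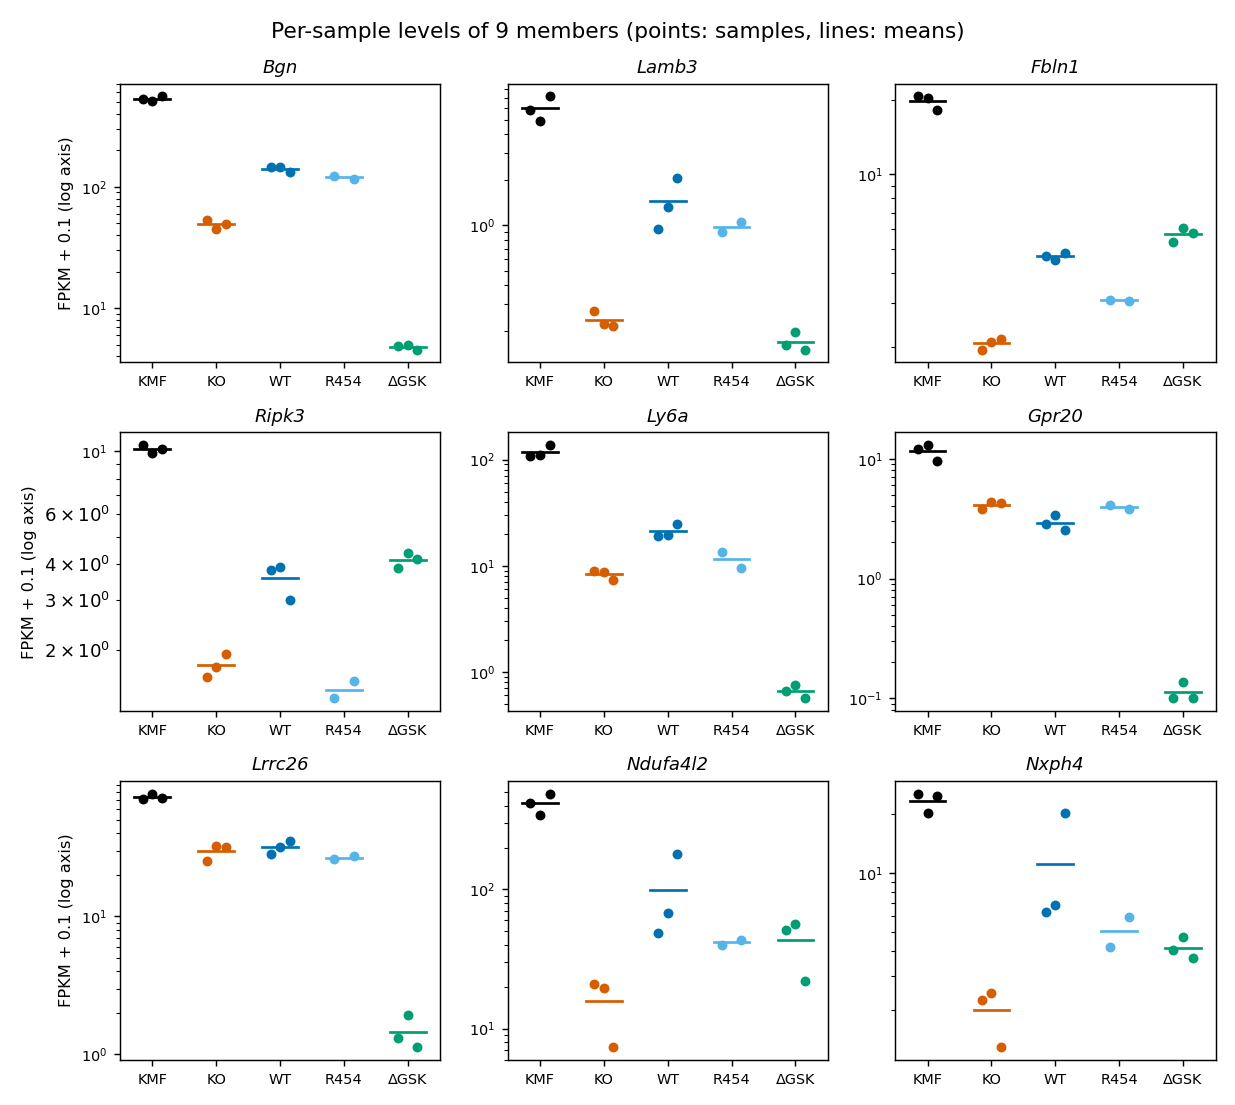
FPKM + 0.1 on log axes for 9 members, with 1 point per sample and the line mean as a bar (n = 3 per line, 2 for FAK-R454). Bgn, Ly6a, Gpr20 and Lrrc26 are lowest in β-catenin ΔGSK cells, Fbln1 and Ripk3 are higher there than in FAK KO, and FAK-WT replicate 3 lies above the other FAK-WT samples for Ndufa4l2 and Nxph4.

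FAK-WT and FAK-R454 cells, which differ in FAK kinase activity, had 2 members that passed every part of the call. The lines also differed in Ptk2 RNA, at 42.3 to 45.4 FPKM in FAK-WT and 59.2 and 65.5 FPKM in FAK-R454 cells. With 1 line of each, kinase activity, FAK level and other differences between the lines cannot be told apart. Ripk3, the kinase that drives necroptosis, was at 10.4, 9.74 and 10.1 FPKM in KMF cells, 1.51, 1.64 and 1.84 in FAK KO. FAK-WT cells held 3.70, 3.81 and 2.90 FPKM, FAK-R454 cells 1.25 and 1.45 FPKM and β-catenin ΔGSK cells 3.77, 4.27 and 4.08 FPKM. Over FAK KO it rose by 1.02 ± 0.14 with FAK-WT (limma adjusted p = 0.00171) and by 1.24 ± 0.11 with β-catenin ΔGSK (adjusted p = 6.12e-05). FAK-WT cells exceeded FAK-R454 cells by 1.30 ± 0.15 (adjusted p = 0.0121). Gstt1, a glutathione transferase of the theta class, was at 2.15, 2.43 and 1.498 FPKM in FAK-WT, 0.782 and 0.829 in FAK-R454 and 0.782, 0.833 and 0.711 in FAK KO. FAK-WT cells exceeded FAK-R454 cells by 1.21 ± 0.21 (limma adjusted p = 0.0325). These were the 2 members called higher in FAK-WT over FAK-R454 cells, where 0.669% of all genes were called, and 0 were called lower, where 0.726% were, with 29 and 6 at an unadjusted p under 0.05 in limma and 4 and 0 called by limma-voom. Neither was called without FAK-WT replicate 2, FAK-R454 replicate 1 or FAK-R454 replicate 2. Without FAK-WT replicate 1 Gstt1 was not called (limma adjusted p = 0.0908). In the runs that lost a call the log2 differences were 1.07 to 1.24 for Gstt1 and 1.20 to 1.40 for Ripk3, so the sizes changed little. Over all genes the calls fell from 82 higher and 89 lower to 4 and 3 without either FAK-R454 sample, and to 31 and 51 without FAK-WT replicate 2. The FAK-WT over FAK KO call of Ripk3 was lost without FAK KO replicate 1, FAK-WT replicate 1 or FAK-WT replicate 2, at log2 fold changes of 0.945 to 0.965.

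Ndufa4l2, Nxph4 and Bnip3 varied between samples of the same line. Ndufa4l2 was at 20.7, 19.4 and 7.26 FPKM in FAK KO. FAK-WT cells held 49.0, 68.1 and 181 FPKM, FAK-R454 cells 39.9 and 43.2 FPKM and β-catenin ΔGSK cells 50.8, 56.5 and 21.9 FPKM. Nxph4, of the neurexophilin family of neurexin ligands, was at 2.16, 2.34 and 1.19 FPKM in FAK KO. FAK-WT cells held 6.19, 6.78 and 20.1 FPKM, FAK-R454 cells 4.08 and 5.88 FPKM and β-catenin ΔGSK cells 3.93, 4.59 and 3.57 FPKM. Bnip3, a mitophagy receptor and hypoxia target, was at 30.0, 30.4 and 55.4 FPKM in KMF cells, 7.49, 6.90 and 4.43 in FAK KO, 7.79, 10.3 and 25.001 in FAK-WT and 21.4, 19.6 and 12.5 in β-catenin ΔGSK cells. For all 3 genes, replicate 3 was the lowest FAK KO sample and the highest FAK-WT sample.

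Ndufa4l2 rose over FAK KO by 2.56 ± 0.53 in FAK-WT (limma adjusted p = 0.00900), 1.53 ± 0.41 with FAK-R454 (adjusted p = 0.0430) and 1.47 ± 0.46 with β-catenin ΔGSK (adjusted p = 0.0258). Nxph4 rose by 2.31 ± 0.44 (limma adjusted p = 0.00647), 1.38 ± 0.29 (adjusted p = 0.0199) and 1.09 ± 0.24 (adjusted p = 0.00487). Without FAK-WT replicate 3 the FAK-WT changes were 2.01 and 1.77 and stayed called. In FAK-R454 cells both calls were lost without either FAK-R454 sample, at 1.59 and 1.48 for Ndufa4l2 and 1.64 and 1.12 for Nxph4. In β-catenin ΔGSK cells both were lost without FAK KO replicate 3, at 0.99 and 0.81, and without β-catenin ΔGSK replicate 2, and that of Ndufa4l2 also without β-catenin ΔGSK replicate 1. Bnip3 rose in β-catenin ΔGSK cells by 1.49 ± 0.24 (limma adjusted p = 0.00123), and its 1.03 ± 0.40 in FAK-WT cells did not pass (adjusted p = 0.0726).

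Among the secreted members, Cxcl5, a neutrophil-attracting chemokine, was at 3.18, 5.58 and 3.90 FPKM in KMF cells, 0.281, 0.209 and 0.345 in FAK KO, 1.74, 1.53 and 1.06 in FAK-WT and 1.04 and 1.14 in FAK-R454. It rose by 2.02 ± 0.23 in FAK-WT (limma adjusted p = 0.000752) and by 1.67 ± 0.21 in FAK-R454 cells (adjusted p = 0.00299). A pseudocount of 1 ended both calls, at 0.926 and 0.713 on the log2 scale. β-Catenin ΔGSK cells held 0 to 0.0476 FPKM. Ism1, a secreted protein of the isthmin family, was the 12th member called higher in FAK-WT cells. Its call was lost without FAK KO replicate 2 (1.13 on the log2 scale), FAK KO replicate 3 (1.13) or FAK-WT replicate 3 (0.81). Grem1, the BMP antagonist gremlin-1, was at 1.53, 1.44 and 1.86 FPKM in KMF cells and 0 in all 3 β-catenin ΔGSK samples, and was at 0.391 FPKM or less in the other clone-derived samples. Psmb8, a catalytic subunit of the immunoproteasome, was at 1.46 to 1.58 FPKM in KMF cells and 0.785 FPKM or less elsewhere, too low in all clone-derived lines to be called. Its means were 0.642 FPKM in FAK-WT and 0.210 FPKM in FAK-R454 cells. No test is read for this difference, since only its KMF mean put Psmb8 in the fit.

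None of the members was in the lists of interferon-stimulated genes, Wnt targets and regulators, axon guidance genes, aldehyde dehydrogenases, imprinted genes, mesothelial markers or markers of leukocytes, fibroblasts, endothelium and erythroid cells. The lists that held members were the matrix list with 5 of its 42 genes above 1 FPKM in KMF cells, and those of antigen presentation (Psmb8), chemokines and cytokines (Cxcl5), cell adhesion (Itga10) and growth factors and receptors (Grem1) with 1 each. The ligand Wnt1, which is on none of the lists, was a member, at 2.13, 1.61 and 1.42 FPKM in KMF cells and 1.16 FPKM or less elsewhere, where it could not be called because all clone-derived means were under 1 FPKM. No test is read for Wnt1, since only its KMF mean put it in the fit. Its log2 fold change in FAK-WT over FAK KO, 1.02, leans in part on FAK-WT replicate 3, at 1.16 FPKM. The other FAK-WT samples were at 0.606 and 0.533 FPKM. Wnt1 was chosen after its values were seen. The Wnt list had 14 of 28 tested genes called higher and 2 lower in β-catenin ΔGSK over FAK KO cells, where 4.97% and 6.80% of all genes were called, with a median log2 fold change of 0.95.

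The members were spread over the genome. They occupied 86 of the 517 windows of 5 Mb that held an expressed protein-coding gene, and no window held more than 3. The window with 3, at 70 to 75 Mb of chromosome 15, held Gpr20, Ly6e and Ly6a among 16 expressed genes. Ptk2 (chr15:73205105-73423191) lies in the same window, and the member Ly6c1 lies just past its end. A link between this position and the members' levels was not tested. Chromosome 2 had 18 members, 18.2% of them against 8.04% of expressed protein-coding genes, and chromosome 19 had 0 of 401. Some members were neighbours: 9 members (9.09%) had another member within 100 kb, as against 2.86% of expressed protein-coding genes with a member within that distance. Ly6e, Ly6a and Ly6c1 lie on chromosome 15 within the Ly6 cluster, with gaps of 35.0 kb and 46.0 kb. Hspb2 and Cryab, small heat shock protein genes that are transcribed away from each other, lie 403 bases apart on chromosome 9. Hspb2 was at 3.52, 2.30 and 3.24 FPKM in KMF cells and 0.274 to 0.474 in FAK KO, while Cryab was at 75.4, 71.9 and 71.7 and 20.9 to 22.3. Tnfrsf14 (a receptor of the tumor necrosis factor family) and Fam213b are 23.1 kb apart on chromosome 4.

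Ndufa4l2 and Nxph4 lie 8.32 kb apart on chromosome 10 with 1 expressed gene between them, Shmt2, the mitochondrial serine hydroxymethyltransferase. Shmt2 was at 73.0, 69.1 and 75.0 FPKM in KMF cells and 29.6 to 45.8 FPKM in the clone-derived samples, and was above the cap of the rule with means of 41.2 FPKM in FAK-WT and 42.4 FPKM in β-catenin ΔGSK cells.

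Genes that are not protein-coding met the same thresholds in 12 cases, and some lay next to members. The lincRNA Fendrr starts 1.275 kb from Foxf1 on the opposite strand, with a KMF mean of 1.36 FPKM and 0.0465 FPKM in its highest clone-derived line. The transcript 2610035F20Rik starts 235 bases from Zic2 on the opposite strand, at 1.41 FPKM in KMF cells and 0.0180 FPKM or less elsewhere. Gm15867 overlaps the member Sertad4 as an antisense transcript, and because the library kit did not mark strand, reads of the pair cannot be told apart.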

How the data were processed

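Tumorspheres of 5 mouse lines were profiled by unstranded, paired-end poly(A) RNA sequencing in 14 samples. The authors deposited 1 table of FPKM values for 35275 genes on mm10; the submitters' processing notes list CASAVA 1.8, STAR 2.5 and DESeq2, whereas the methods of the study name another aligner, so the aligner of the table is uncertain. FPKM values were whole multiples of a fragment in 100% of cases, which gave the fragments per sample: 25390558 to 35289859. The tolerance was 0.01 fragments at low counts and grew with the count, so the check was weak for the most abundant genes. Intervals cover counting error only.

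Samples were grouped by the labels. The members and gene lists were chosen with earlier results of these data known. Lines were compared in pairs with limma 3.58.1 in R 4.3.3 (trended empirical Bayes, two-sided, Benjamini-Hochberg over 12256 genes with a mean above 1 FPKM in at least 1 line) on log2(FPKM + 0.1), so fold changes of low genes are understated. The p-values measure the spread between RNA samples of each line. The fit was first tested on simulated data. Named genes were the 15 members with the highest ratio, the 10 most abundant, up to 6 called in each direction per comparison with the largest change, those in a list, 3 on each side of the threshold and Ptk2. Alternatives were the pseudocount, filter, scaling, trend, a joint fit, a replicate block, limma-voom on fragments, no fold threshold, chromosome centring and leaving out each sample. Python 3.11.15 with pandas 2.3.3 made the tables. Promoter sequences are RefSeq's for GRCm38.p6; the promoters of 30 members were not used here. The values of 1 called member are not reported here.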

Additional observations from a re-analysis of the deposited data

Results flagged for a closer look

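Ripk3 and Gstt1 were the members that passed the adjusted p, the fold and the level threshold in the test of FAK-WT over FAK-R454 cells, with differences of 1.30 and 1.21 on the log2 scale (limma). With no fold threshold 9 members passed.

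Among the genes named by the rule, and not over all 99 members, there were some for which every FAK-WT sample lay above all FAK KO samples and every β-catenin ΔGSK sample below them. The 2 log2 fold changes over FAK KO differed by 4.88 for Bgn, 5.0 for Ly6a, 4.08 for Ly6c1, 4.06 for Tnnt2, 3.64 for Cxcl5, 3.03 for Lamb3, 2.35 for Gstt1, 2.32 for Fbn1, 1.83 for Ebf4, 1.48 for Grem1 and 0.693 for Cryab. FAK-R454 and β-catenin ΔGSK samples lay on opposite sides of FAK KO in the same way, with differences of 4.65 for Bgn, 4.6 for Tnnt2, 4.11 for Ly6a, 3.3 for Cxcl5, 3.1 for Ly6c1, 2.54 for Lamb3, 2.2 for Grem1, 1.78 for Ebf4 and 0.407 for Cryab. Ripk3 lay the other way, at -1.52, below FAK KO in FAK-R454 and above it in β-catenin ΔGSK cells. These differences between lines were not tested, and both sides use the same FAK KO samples. How many of all genes show such a pattern was not counted, so nothing is read from the number of members. With no fold threshold, 14.8% of all genes were called higher in FAK-WT, 8.78% higher in FAK-R454 and 33.1% lower in β-catenin ΔGSK cells. Fbn1 and Grem1 entered the fit only through their KMF means, so nothing is read from their differences.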

How the results depend on the processing

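No direction reversed in any alternative run for the members' medians or for the calls of members in the main fit. The directions of members that were not called were not followed. The number of members was 59 with a pseudocount of 1, 262 with a ratio of 1.5, 44 with a ratio of 3 and 48 with a KMF mean above 5 FPKM. With a pseudocount of 1, 7 members were called higher in FAK-WT over FAK KO and 0 in FAK-WT over FAK-R454 (over all genes the calls went from 343 to 172 and from 82 to 26), and the members' medians were 0.17, 0.0224 (FAK-R454 over FAK KO), -0.151 (β-catenin ΔGSK over FAK KO) and 0.108 (FAK-WT over FAK-R454). A pseudocount of 1 ended the calls of Gstt1, Fbln1, Ripk3, Cxcl5 and Ism1 in FAK-WT and of Cxcl5 in FAK-R454 over FAK KO, and of Cbfa2t3, Ripk3, Frmd5, Mycn, Saa3, Nxph4, Fam43a and Smim5 in β-catenin ΔGSK cells. Without the filter the calls of Nxph4 (adjusted p = 0.053 in limma) and Ndufa4l2 in FAK-R454, of Ndufa4l2 in β-catenin ΔGSK (0.0517) and of Gstt1 in FAK-WT over FAK-R454 (0.0623) were lost. The FAK-R454 call of Ndufa4l2 was also lost without the trend or in a joint fit of the 5 lines, and the β-catenin ΔGSK call of Fam43a with median-of-ratios scaling, limma-voom or chromosome centring. With no fold threshold the calls were 27 higher and 8 lower, 11 and 4, 10 higher, and 9 higher, in that order of comparisons. With no filter 3 members were called higher in FAK-R454 over FAK KO and 1 in FAK-WT over FAK-R454. Medians were 0.466 (FAK-WT over FAK KO) and -0.444 (β-catenin ΔGSK) with median-of-ratios scaling, 0.507, 0.0954, -0.61 and 0.341 with limma-voom (4 called higher in FAK-WT over FAK-R454), and 0.493, 0.11, -0.35 and 0.324 with chromosome centring, chosen after seeing the data. The FPKM filter at 5 gave 0.0554 for FAK-R454 over FAK KO and -0.866 for β-catenin ΔGSK, and the filter on the 2 lines compared gave -0.78 there. Both filters left out members, so their medians cover fewer of them. There were 48 members with a KMF mean above 5 FPKM, and 48 above 1 FPKM in FAK KO or β-catenin ΔGSK cells. Median-of-ratios scaling also moved the median over all genes, from -0.0727 to -0.00335 in FAK-WT over FAK KO. In β-catenin ΔGSK over FAK KO it moved from -0.0912 to -0.00704. The cause of the other shifts was not tested.

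Leaving out 1 sample at a time gave, in FAK-WT over FAK KO, 11 to 13 members higher and 0 to 1 lower (309 to 381 and 179 to 228 of all genes). FAK-R454 over FAK KO gave 3 to 5 higher, 0 to 1 lower (156 to 251 and 74 to 108 of all genes) and a median of 0.05 to 0.107. β-Catenin ΔGSK over FAK KO gave 4 to 7 higher, 19 to 20 lower (586 to 648 and 801 to 871 of all genes) and a median of -0.558 to -0.472. FAK-WT over FAK-R454 gave 0 to 4 higher and 0 to 1 lower (4 to 108 and 3 to 111 of all genes). A lone FAK-R454 sample is assumed to vary like the other line.

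Samples that share a replicate number did not deviate together in every pair, so the numbers were not taken as pairs. The replicate block changed no member call against FAK KO (median 0.107 in FAK-R454), and in FAK-WT over FAK-R454 it gave 4 members higher and 1 lower. Depth limits members near 0 in the clone-derived lines.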
